A study of Mus musculus with 4 samples.

Results

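The genes of antigen presentation by major histocompatibility complex (MHC) class II were examined in the nasal mucosa of young adult and aged mice. They were 10 of the 45604 genes measured: *H2-Aa*, *H2-Ab1*, *H2-Eb1*, *Cd74*, *Ctss*, *H2-DMa*, *H2-DMb1*, *H2-Oa*, *H2-Ob* and *Ciita*. Genes were chosen by symbol, and every non-control probe whose accession mapped to one of these symbols was taken, which gave 15 of 56605 probes. *H2-Ab1* had 4 probes, *Ciita* and *H2-Ob* had 2 each, and the other genes had 1. Every gene had a probe well above background on all 4 arrays, and none was lost to a filter on low values.

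MHC class II molecules are pairs of an α and a β chain that show peptides from endosomes to CD4+ T cells. They assemble with the invariant chain, which holds the peptide groove closed until endosomal proteases trim it to a short remnant called CLIP, and the DM molecule then exchanges CLIP for peptide, under restraint by the DO molecule. The coactivator CIITA switches on most of these genes, mainly in dendritic cells, B cells and macrophages, and interferon-γ induces it in other cells, epithelia included.

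Septal nasal mucosa, which the sample titles call olfactory epithelium, was taken from male C57BL/6 mice, given as C57BL/6J in the sample labels, of 8 weeks (young adult) and 16 months (aged). No treatment or allele set the groups apart, and a label entry on silica aspiration and lung, at odds with the titles and the study's methods, was not used. There were 4 one-color Agilent arrays, 2 per age, each carrying RNA pooled from 5 mice, so that *P*-values measure the spread between pools. The study's methods count fewer mice per age than separate pools would need, and whether the pools of an age shared mice is not stated in the sources used here.

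All 8 markers fixed for the olfactory mucosa, among them *Omp* of mature olfactory neurons, were well above background on all 4 arrays, and how they differed with age is given with the leukocyte markers. From 63.1% to 76.8% of the non-control spots of an array were well above background, no spot was saturated, and the number of arrays limits the precision. The first array of each age shared a slide, and the others had a slide each. The mice were described as male, yet the *Xist* probe was well above background on all 4 arrays (612 to 645) and 7 probes of 4 Y-linked genes were not on any array (7.48 to 52.2), alike in both ages.

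CIITA does not bind DNA itself, and is held at class II promoters by the RFX complex on the X box, by CREB beside it, and by NF-Y on the Y box. Within the 250 bases before the start site (RefSeq, GRCm38.p6), 7 of the 10 genes had an entry, and *Cd74*, *H2-Ab1* and *Ciita* were not analysed here. A core of the X box (GNAAC) followed after 15 to 30 bases by a core of the Y box (TGATTGG) was present in 5 of the 7, *H2-Aa*, *H2-Eb1*, *H2-DMb1*, *H2-Oa* and *H2-Ob*. These stretches are shown because these 5 genes, which encode a classical α chain, a classical β chain, the DM β chain and both DO chains, have the feature in common. Each is printed on the strand of its gene, with the cores in capitals.

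*H2-Aa*, chr17:34287855-34287916, minus strand: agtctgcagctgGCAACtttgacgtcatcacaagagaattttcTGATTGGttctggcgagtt

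*H2-Eb1*, chr17:34305764-34305824, plus strand: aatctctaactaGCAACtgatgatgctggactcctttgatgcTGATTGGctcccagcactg

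*H2-DMb1*, chr17:34153085-34153146, plus strand: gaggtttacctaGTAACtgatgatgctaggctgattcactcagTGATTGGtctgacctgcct

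*H2-Oa*, chr17:34092291-34092352, plus strand: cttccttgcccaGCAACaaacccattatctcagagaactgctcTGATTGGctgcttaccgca

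*H2-Ob*, chr17:34238806-34238864, plus strand: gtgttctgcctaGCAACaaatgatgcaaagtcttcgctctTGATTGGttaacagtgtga

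The cores lay 26 bases apart in *H2-Aa*, *H2-DMb1* and *H2-Oa*, 25 bases apart in *H2-Eb1* and 23 bases apart in *H2-Ob*, and the Y box core ended 38 to 56 bases before the start. Searched on both strands, the Y box core was found in 7.23% of the 32851 promoter windows of the same length, and the spaced pair in 0.396%. The motifs were picked after the letters had been seen, so the shares are a description, and a match is not a measured binding site. The windows of *H2-DMa* and *Ctss* held no such pair of letters.

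Between young adult and aged mice, no class II presentation gene changed at the limits of the study's methods, *P* below 0.05 and a false discovery rate (FDR) below 0.25. With limma, 0 of the 10 genes were called, against 3.98% of all genes tested in either direction, 2.33% lower and 1.65% higher. One gene of the 10 passed the *P* limit alone, *H2-Oa*, against 13.1% of all genes, 7.08% of them lower in aged mice. The log2 fold changes, aged minus young adult, ran from -0.51 for *H2-Oa* to 0.13 for *H2-DMb1*, with a median of -0.15 beside 0.0093 over all genes. The fold change was below 0 for 8 genes, and 48.5% of all genes were below 0. The ages did not overlap in 8 genes, against 46% of all genes. In 7 of them the aged pools were both the lower ones, which held for 21.8% of all genes, and in 1 they were the higher ones, which held for 24.2%. Under every alternative processing of all 4 arrays the median of the 10 genes lay between -0.20 and -0.13. In whole mucosa, fewer cells that carry a transcript and less of the transcript per cell cannot be told apart.

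**Figure D1:**
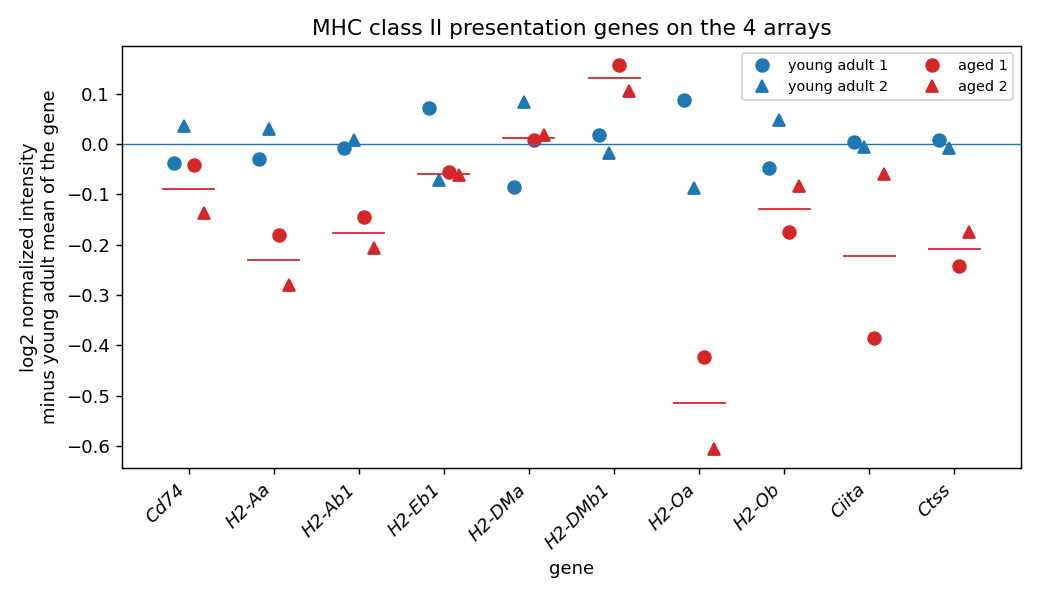
Log2 normalized intensity of each class II presentation gene (x axis) on each array, as the difference from the gene's young adult mean (y axis, log2 units); circles are arrays of replicate 1, triangles of replicate 2, blue for young adult and red for aged, and the red bar is the aged mean. Both aged arrays sit below both young adult arrays in 7 genes, furthest for *H2-Oa* at -0.51, and above them in *H2-DMb1*.

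The classical chains form the peptide groove itself. *H2-Aa* encodes the α chain of the I-A molecule, with a normalized intensity of 2099 and 2186 in young adult mice and of 1891 and 1765 in aged mice. Both aged arrays were lower, and the log2 fold change was -0.23 (SE 0.086, 95% interval -0.49 to 0.03, FDR = 0.416), a mean of 1828 ± 89.0 in aged against 2142 ± 61.2 in young adult mice (SD, n = 2). *H2-Ab1* encodes its β chain and measured 7645 and 7726 in young adult and 6948 and 6660 in aged mice. The aged arrays were again the lower ones, at a log2 fold change of -0.18 (95% interval -0.41 to 0.06, FDR = 0.470). The 4 probes of *H2-Ab1* differed by -0.15, -0.21, -0.16 and -0.19 log2 units, and on each of them both aged arrays were below both young adult arrays. They were hybridized with the same labelled RNA and repeat the measurement of the RNA, not of the mice.

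*H2-Eb1* encodes the β chain of the I-E molecule, whose α chain mice of the C57BL/6 strain do not make. It gave 13883 and 12570 in young adult mice and 12707 and 12659 in aged mice. The aged arrays fell between the young adult ones, and the log2 fold change of -0.06 had a 95% interval of -0.33 to 0.22 (FDR = 0.817). Its sign turned to 0.013 when young adult array 1 was left out. Relative to *H2-Ab1* on the same array, *H2-Eb1* was at 0.079 and -0.079 log2 units in young adult mice and at 0.089 and 0.15 in aged mice, so that the nearest arrays of opposite age almost met.

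*Cd74*, the invariant chain, guides class II molecules to endosomes and blocks their groove. Its intensity was 7740 and 8145 in young adult mice and 7712 and 7219 in aged mice. The arrays separated by a margin smaller than the gap between the pools of either age, and the interval of the difference reached from 0.785-fold to 1.13-fold (log2 fold change -0.09, FDR = 0.708). On the shared slide the difference was -0.01, and between the other arrays -0.17.

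*Ctss* encodes cathepsin S, the protease that cuts the invariant chain down to CLIP in antigen-presenting cells. It measured 10567 and 10444 in young adult mice and 8882 and 9311 in aged mice. Both aged arrays were lower, by 13.4% in the mean of log2 values (log2 fold change -0.21, SE 0.078, 95% interval -0.44 to 0.03, FDR = 0.417). On the shared slide the difference was -0.25, and between the other arrays -0.17. The gap between ages in *Ctss*, *H2-Aa* and *H2-Ab1* was therefore larger than the gap between pools of an age, but not past the limits in the fit over all genes.

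The DM molecule catalyses the exchange of CLIP for peptide. *H2-DMa*, its α chain, was at 600 and 675 in young adult mice and 639 and 644 in aged mice. The aged values lay inside the young adult range, with a log2 fold change of 0.01 and a 95% interval from 0.823-fold to 1.24-fold (FDR = 0.964), and the sign turned to -0.072 when young adult array 1 was left out. *H2-DMb1*, the main β chain, measured 2158 and 2107 in young adult and 2378 and 2296 in aged mice. It was the only gene of the 10 with both aged arrays above both young adult arrays (log2 fold change 0.13, 95% interval -0.10 to 0.36, FDR = 0.566). *H2-DMb2*, its near copy outside the 10 genes, measured 169 and 153 in young adult and 146 and 163 in aged mice, with overlapping ages. Sequence-alike probes of such copies can take up each other's RNA, and how far they did here was not tested.

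The DO molecule binds DM and holds back peptide exchange, and is made chiefly in B cells, thymic epithelium and subsets of dendritic cells. *H2-Oa*, its α chain, measured 143 and 127 in young adult mice and 100 and 88.4 in aged mice. Both aged arrays lay well below both young adult arrays, with means of 94.3 ± 8.41 against 135 ± 11.5 (SD, n = 2). The log2 fold change was -0.51 (SE 0.12, 95% interval -0.88 to -0.15, or 0.544-fold to 0.901-fold), with FDR = 0.291. The difference was -0.51 on the shared slide and -0.52 between the other arrays. At the FDR limit this gene was not called, but it was under 6 of 17 alternative settings. In those 6, from 6.55% to 24.2% of all genes were called in either direction. Of the other settings, 1 slide alone gave no *P*-value and the replicate block called 0 of the 45604 genes. Each fit with an array left out had 1 pool in an age. The log2 fold change of *H2-Oa* lay between -0.66 and -0.36 across the 17. It was a dim gene, with 1 probe.

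*H2-Ob*, the DO β chain, gave 67.9 and 72.5 in young adult mice and 62.2 and 66.3 in aged mice. The aged arrays were lower by a log2 fold change of -0.13 (95% interval -0.40 to 0.14, FDR = 0.615), and the nearest arrays of opposite age lay closer together than the pools of either age. Its brighter probe measured 137 and 138 against 112 and 128, a difference of -0.20, while the dimmer probe was not well above background on any array and differed by -0.06. Set against *H2-Ob* on the same array, *H2-Oa* was at 0.13 and -0.13 log2 units in young adult mice and at -0.25 and -0.52 in aged mice. Set against *H2-DMa*, it was at 0.17 and -0.17 in young adult mice and at -0.43 and -0.62 in aged mice. In both pairings the aged arrays were below the young adult ones, and these ratios were not tested.

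*Ciita* encodes the coactivator itself. Averaged over its probes it gave 226 and 224 in young adult mice and 172 and 216 in aged mice. Both aged arrays were lower, but they stood further from each other than aged array 2 did from the young adult arrays, and the log2 fold change of -0.22 had a 95% interval of -0.66 to 0.21 (FDR = 0.599). The brighter probe gave 678 and 698 in young adult mice and 535 and 581 in aged mice, with no overlap and a difference of -0.30. The dimmer probe, well above background on 3 of the 4 arrays, gave 75.03 and 72.0 against 55.4 and 80.1, where aged array 2 was the highest of all. The probes thus disagreed on aged array 2 only. Without aged array 1 the log2 fold change of *Ciita* was -0.06.

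**Figure D2:**
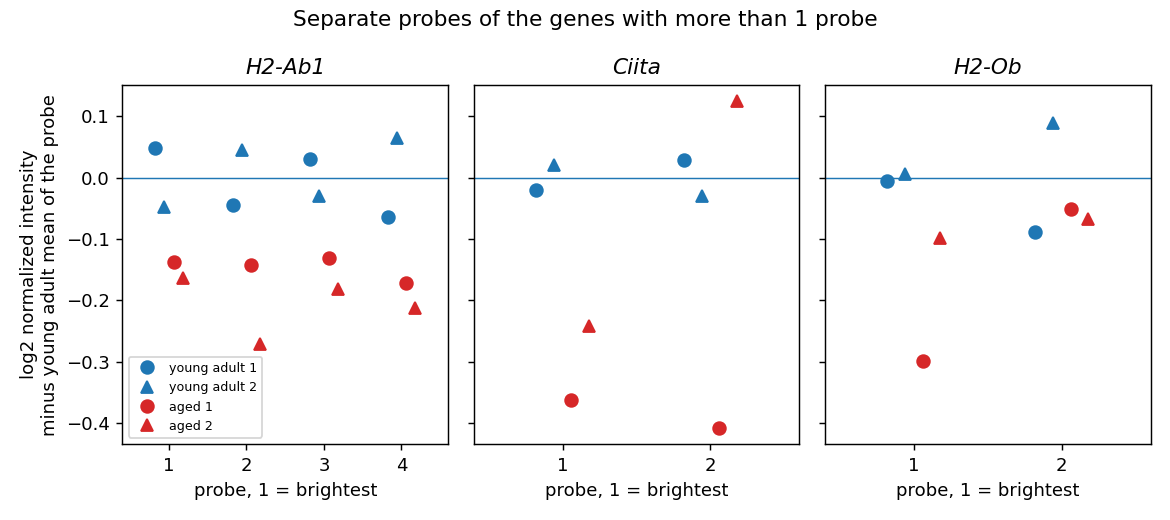
Log2 normalized intensity of each probe of *H2-Ab1*, *Ciita* and *H2-Ob* (x axis, ranked by brightness within the gene) on each array, as the difference from the probe's young adult mean (y axis, log2 units); circles are arrays of replicate 1, triangles of replicate 2, blue for young adult and red for aged. All 4 probes of *H2-Ab1* place both aged arrays below both young adult arrays, as do the brighter probes of *Ciita* and *H2-Ob*, and the dimmer probes of these genes do not.

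The other genes of the class II pathway were taken as 39 genes outside the 10, in lists by role. With limma, 0 of the 39 were called, against 3.98% of all genes in either direction. The *P* limit alone was passed by 5 (1 higher and 4 lower in aged mice), against 13.1% of all genes. The median log2 fold change of the 39 was -0.03. Among 14 regulators of class II transcription, which include the RFX and NF-Y subunits that read the X and Y boxes and the interferon-γ pathway that induces *Ciita*, the median was 0.0022, with 7 above and 7 below 0. *Rfx5*, the DNA-binding subunit of RFX, measured 71.7 and 67.8 in young adult and 66.9 and 83.8 in aged mice, with overlapping ages. *Ifng*, which encodes interferon-γ, was not well above background on any array.

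The 10 genes of endosomal processing were mostly on the lower side in aged mice, 9 of them below 0 with a median of -0.12, though none was called. The most different were *Ctsz*, a carboxypeptidase, at 6282 and 6308 against 5018 and 4524 (log2 fold change -0.40, FDR = 0.287), and *Ctsh*, an aminopeptidase, at 2605 and 2740 against 2059 and 2026 (log2 fold change -0.39, FDR = 0.264). Aged arrays were the lower ones for both. *Ifi30*, the thiol reductase that opens disulfide bonds of antigens, had a log2 fold change of -0.22 (FDR = 0.424) and *Lgmn*, an asparaginyl protease, one of 0.02 (FDR = 0.949).

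Among 9 genes of class II turnover and costimulation the median was 0.02. *Cd274*, which encodes the inhibitory ligand PD-L1, was at 684 and 629 in young adult and 783 and 903 in aged mice (log2 fold change 0.36, FDR = 0.376), with the aged arrays higher. *Marchf1*, the ubiquitin ligase that takes class II molecules off the surface, had a log2 fold change of 0.19 and *Cd86*, a costimulatory ligand, one of -0.01, neither called. The partners of class II and of the invariant chain, *Cd4*, *Lag3*, *Mif* and *Cd44*, were all below 0 with a median of -0.25, and none was called. *H2-Eb2* was well above background on 2 of the 4 arrays.

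**Figure D3:**
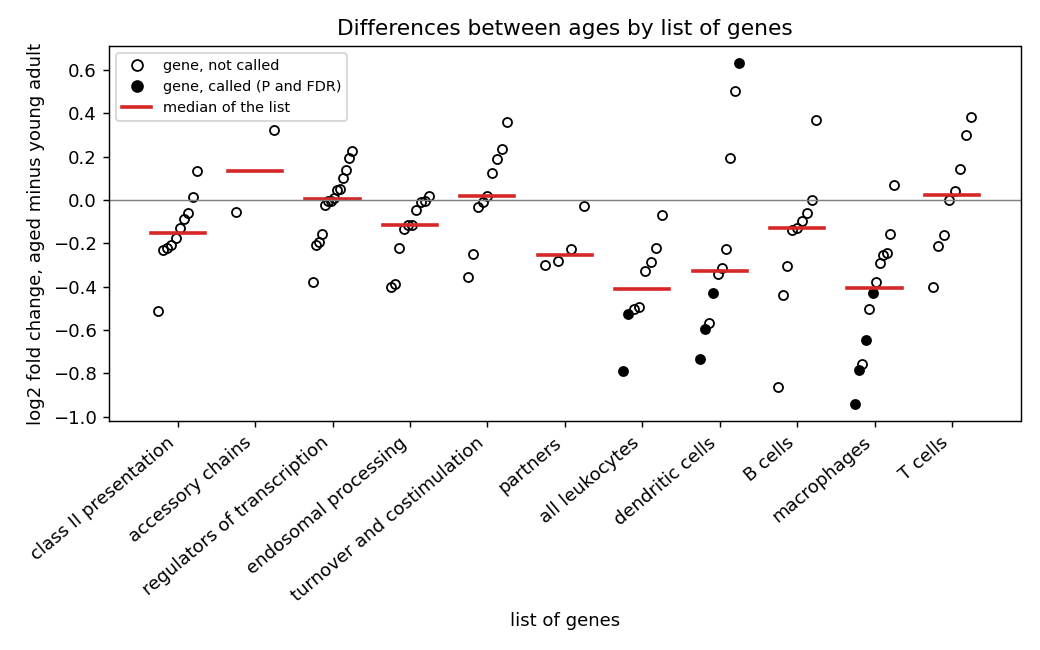
Log2 fold change, aged minus young adult (y axis), of each gene in each list (x axis); open circles were not called, filled circles were called at *P* below 0.05 and FDR below 0.25, and the red bar is the median of the list. The class II presentation genes lie around a median of -0.15 with no filled circle, while the lists of all leukocytes, dendritic cells and macrophages hold 10 filled circles, 9 of them below 0.

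Some markers of leukocytes in general, of dendritic cells and of macrophages moved with age, and no B cell or T cell marker was called. Of 47 markers of leukocytes, dendritic cells, B cells, macrophages and T cells, 9 fell and 1 rose with limma. Over all genes, 2.33% fell and 1.65% rose at these limits. The other 37 markers were not called, and the median log2 fold change of the 47 was -0.29. None of the class II genes is among them. Of the 12 macrophage markers, 4 fell, *Cx3cr1* (-0.94, FDR = 0.178), *Cd68* (-0.78, FDR = 0.201), *Mrc1* (-0.65, FDR = 0.201) and *C1qc* (-0.43, FDR = 0.238), and the summed intensity of the list was 14953 and 15168 in young adult against 12459 and 12310 in aged mice. *Adgre1*, which encodes F4/80, was not called (-0.38, FDR = 0.412). Of the 8 markers shared by leukocytes, *Cd52* (-0.79, FDR = 0.185) and *Coro1a* (-0.53, FDR = 0.210) fell, *Ptprc*, which encodes CD45, was not called (-0.50, FDR = 0.278), and the list summed to 10401 and 10195 in young adult against 7291 and 7279 in aged mice.

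Of the 10 dendritic cell markers, *Itgax*, which encodes CD11c, fell from 163 and 163 to 93.8 and 102 (-0.73, FDR = 0.193), and *Cd209a* fell as well (-0.43, FDR = 0.248). *Clec9a* of type 1 conventional dendritic cells gave 45.7 and 49.95 in young adult and 29.9 and 33.4 in aged mice and was called lower (FDR = 0.241), but it was well above background on 1 young adult and no aged array, so no fold is given. *Ccr7*, the receptor by which mature dendritic cells and some lymphocytes leave for lymph nodes, rose from 88.2 and 93.1 to 135 and 146 (0.63, FDR = 0.208). The median of the list was -0.33. Both aged arrays were lower in 6 of the 10 markers (21.8% of all genes) and higher in 3 (24.2% of all genes). Besides *Ccr7*, the higher ones were *Zbtb46* and *Cd207*, neither called. *Zbtb46* gave 135 and 117 in young adult and 139 and 149 in aged mice (0.20, FDR = 0.558). The list summed to 1095 and 1013 in young adult and 864 and 927 in aged mice. *Xcr1* and *Cd207* stayed below the background mark on every array, so no fold is given for them. None of the 9 B cell or 8 T cell markers was called. Of the T cell markers, 5 were above 0 and 3 below, with a median of 0.02, *Cd3d* at -0.21 and *Cd2* at 0.38. The B cell list summed to 862 and 822 in young adult and 1006 and 724 in aged mice, overlapping between ages. *Cd79b* in that list gave 478 on aged array 1, against 210 on aged array 2 and 258 and 234 in young adult mice. Among the B cell markers, 7 were below 0 and 2 above, with a median of -0.13. Both aged arrays were the lower ones in 2 of them (21.8% of all genes), and the ages overlapped in 7. The T cell list summed to 1086 and 1278 against 1118 and 1217, also overlapping. *Blk* and *Cd8a* stayed below the background mark throughout. Markers of cells other than leukocytes moved too. Of the 8 olfactory mucosa markers, *Krt5* of horizontal basal cells fell (-0.49, FDR = 0.216), and *Gap43* of immature olfactory neurons (-0.41, FDR = 0.251) and *Ugt2a1* of the olfactory epithelium (-0.38, FDR = 0.297) were lower on both aged arrays without being called. The other 5, *Omp* (0.15, FDR = 0.549) among them, were higher on both aged arrays (24.2% of all genes) and not called.

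Over whole lists, called or not, the 47 markers had log2 fold changes of -0.94 to 0.63 with a median of -0.29, and the 10 class II genes of -0.51 to 0.13 with a median of -0.15. The ranges overlapped. The 95% intervals of 9 class II genes reached across 0, and that of *H2-Oa* did not. The difference between the class II genes and the markers was not itself tested, and the part of these markers in the class II values was not tested. With any 1 array left out, an age kept 1 pool. Such a fit cannot show whether a marker call rests on a single array.

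**Figure D4:**
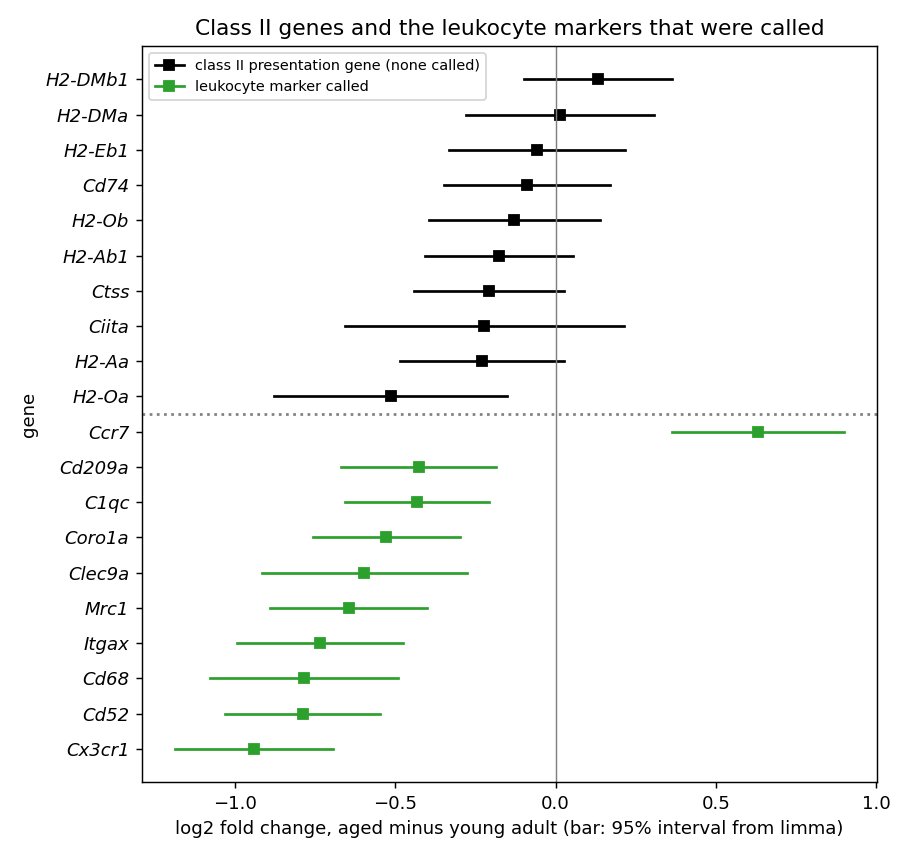
Log2 fold change, aged minus young adult (x axis), with its 95% interval from limma (bar), for the class II presentation genes (black) and the markers of leukocytes and their types that were called (green, shown because they passed the limits), each gene on a line (y axis). The black squares lie between -0.51 and 0.13 with the interval of *H2-Oa* alone clear of 0. The green squares lie between -0.94 and -0.43 except *Ccr7* at 0.63. Of the green genes, *Clec9a* was well above background on 1 young adult and no aged array.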

How the data were processed

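Spot values came from the authors' scanner software (Feature Extraction 11.0.1.1). The files they deposited hold, for each array, a median intensity per spot, a local background value and flags, not normalized across arrays. A deposited table for the series had the same values as the processed intensity at each of 62976 spots and served only as an alternative. Background correction used normexp with an offset of 0 (limma 3.58.1, R 4.3.3), with all spots in its fit. Outlier-flagged and control spots were then dropped, replicate spots averaged, log2 values quantile normalized and the probes of each gene averaged. RefSeq accessions (GRCm38.p6, versions ignored) named 32994 of 56605 probes, and the others kept the design's identifier. The array design uses another build, so coordinates are given only for RefSeq promoters.

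Ages were compared with limma (lmFit, eBayes, no covariates), and *P* was adjusted by Benjamini-Hochberg over 45604 genes, with the limits of the study's methods. An exact permutation test of 2 against 2 arrays cannot go below *P* = 0.333, and none was run. The fit was tested on simulated data. The alternatives were other offsets (16 and 50) or no background correction, the processed signal, other scalings, flagged spots kept, dim probes left out, the brightest probe, an intensity trend, the replicate number as a block, 1 slide alone, each array left out, and stricter limits.

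The genes and lists were chosen with earlier results of these data known. Named genes were the 10 class II genes, every called gene and up to 5 of the largest differences of a list, and the first gene of each marker list, with a few others named for their role after their values were seen. Some genes of the lists are counted but not reported here by name.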

Additional observations from a re-analysis of the deposited data

How the results depend on the processing

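Of the 10 class II genes, 1 (*H2-Oa*, lower) was called with an offset of 16 or 50, with no background correction or with the quantile-normalized processed signal, when 6.55%, 10%, 8.83% and 9.59% of all genes were called in either direction. With only probes well above background, or with an intensity trend, 4 were called lower (*Ctss*, *H2-Aa*, *H2-Ab1* and *H2-Oa*), when 24.2% and 15.6% of all genes were called in either direction. The FDR of *H2-Oa* ran from 0.0841 to 0.683. The count was 0 under all other settings, the replicate block included. Of the other pathway genes, 3 were called with an offset of 16, without background correction and with the quantile-normalized processed signal, 4 with an offset of 50, 1 with cyclic loess (5.11% of all genes there), 8 of the 34 with only probes well above background and 10 with the intensity trend, against the shares of all genes just given. Leukocyte markers called numbered 17 with an offset of 50 (10% of all genes) or the intensity trend (15.6%). They numbered 20 of 40 with only probes well above background (24.2%). With 75th percentile scaling there were 7 (3.09%), and with the processed signal scaled so there were 8 (3.3%). With a mean of at least 100 and a fold change of at least 1.5 required, 6 were called. At an FDR below 0.05 there were 0, though 20 markers had an unadjusted *P* below 0.05 in limma. The lowest FDR of any gene was 0.0945, so that 0 is not particular to the markers.

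The median of the class II genes was -0.14 with an offset of 16, -0.13 with an offset of 50 or no background correction, -0.16 and -0.20 with the processed signal scaled to the 75th percentile and by quantiles, -0.14 with the 75th percentile, -0.19 with only probes well above background, -0.17 with the brightest probe, -0.13 within the slide that holds both ages and -0.18 to -0.11 with an array left out. The sign of *H2-Eb1* (0.013, range -0.13 to 0.013 with an array left out) and of *H2-DMa* (-0.072, range -0.072 to 0.097) turned without young adult array 1. The causes were not tested. Every other class II gene kept its direction in all 17 settings.

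With the replicate number as a block, 0 markers and 0 of the 45604 genes were called. The labels do not pair the samples, replicate 1 of each age shared a slide, and deviations of same-numbered arrays from their age means correlated at 0.082 over 25513 genes. The slide as a random block was not run, since 4 arrays gave no correlation estimate. Signal over background limits *H2-Ob* and the dimmer probe of *Ciita*.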

Other observations

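The 10 class II genes averaged 0.072 and 0.076 log2 units relative to each gene's mean of all arrays in young adult mice, and -0.074 and -0.074 in aged mice. Among 15386 genes named by symbol, outside all lists and with a mean intensity of at least 100, the closest to this profile over the 4 arrays were *Pfkm*, *Ccdc181*, *H13*, *Bri3bp* and *Rbpms2*, at Euclidean distances of 0.00811 to 0.0140 log2 units. As many as 1436 genes lay within 0.1, so that closeness over 4 arrays singles out few genes.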
